A study of Homo sapiens with 8 samples.

Results

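Chromosome 19 is the human chromosome with the highest density of genes. It is described here through the binding of NIPBL, MED1 and SMC1A in the lymphoblastoid line GM12878, an established culture of transformed B cells. Its members are all peaks on chromosome 19 in the 6 deposited peak lists, chosen by position alone: 8931 of the 224694 peaks on chromosomes 1 to 22 and X. Each protein was profiled by ChIP-seq, which sequences the DNA recovered with an antibody from crosslinked chromatin, in 2 libraries from untreated cells. Those 6 libraries, 2 each for NIPBL, MED1 and SMC1A, are the groups used, and 2 whole cell extract libraries were pooled as the control of every list. All libraries came from the same line, and no label says that replicates were separate cultures, so p-values measure the spread between these libraries, which may be technical.

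NIPBL loads the cohesin ring onto DNA and moves with it, and cohesin extrudes DNA into loops that often stop at the boundary protein CTCF. SMC1A is one of the subunits of that ring. MED1 belongs to Mediator, which passes signals from enhancer-bound transcription factors to RNA polymerase II at promoters. Chromosome 19 also carries large tandem arrays of KRAB zinc finger genes, which encode repressors of transposable elements and are known to lie in chromatin marked by H3K9me3. The arrays set apart here run from 19.8 to 24.5 Mb (the first cluster, beside the centromere) and from 52.0 to 59.1 Mb (the second cluster, at the end of the long arm) of the hg19 build. Other zinc finger arrays of the chromosome are smaller and stay in the rest. The second cluster also holds genes of other families.

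In each library a peak is 1 interval called above the control, and its fold enrichment is the authors' ratio of signal to control at the summit. A region is the merge of overlapping peaks found in both replicates of a factor, and its fold enrichment in a library is that of its strongest peak there. Chromosome 19 held 449 NIPBL, 705 MED1 and 1777 SMC1A regions. Density is given per Mb of the 1 Mb bins that hold a peak of any list, so that assembly gaps do not count. The lowest control estimate in a list, taken as its relative depth, was 0.743 (SMC1A replicate 2) to 0.965 (NIPBL replicate 1) of that of MED1 replicate 1. Files hold no read totals, so absolute depth is unknown and this reading of the estimate could not be checked. The MED1 lists differ most in length, and MED1 regions found in both libraries therefore rest on the shorter list of replicate 1.

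All 3 proteins were denser on chromosome 19 than elsewhere, MED1 by the widest margin. NIPBL had 13.8 and 11.4 peaks per Mb on chromosome 19 in replicates 1 and 2, against 7.47 and 5.33 on the other chromosomes. MED1 had 15.5 and 40.2 peaks per Mb on chromosome 19, against 6.25 and 15.5 elsewhere. SMC1A had 35.5 and 45.7 peaks per Mb on chromosome 19, against 19.7 and 23.8 elsewhere. In each library the chromosome 19 value was the higher of the pair. Chromosome 19 ranked first of 23 chromosomes in each of the 6 libraries and lay 1.14 to 1.31 times above the chromosome that came second. That was chromosome 17 for NIPBL and MED1 and chromosome 22 for SMC1A. With 1.95% of the length, chromosome 19 held 3.56% and 4.08% of NIPBL peaks, 4.72% and 4.92% of MED1 peaks and 3.46% and 3.69% of SMC1A peaks.

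**Figure D1:**
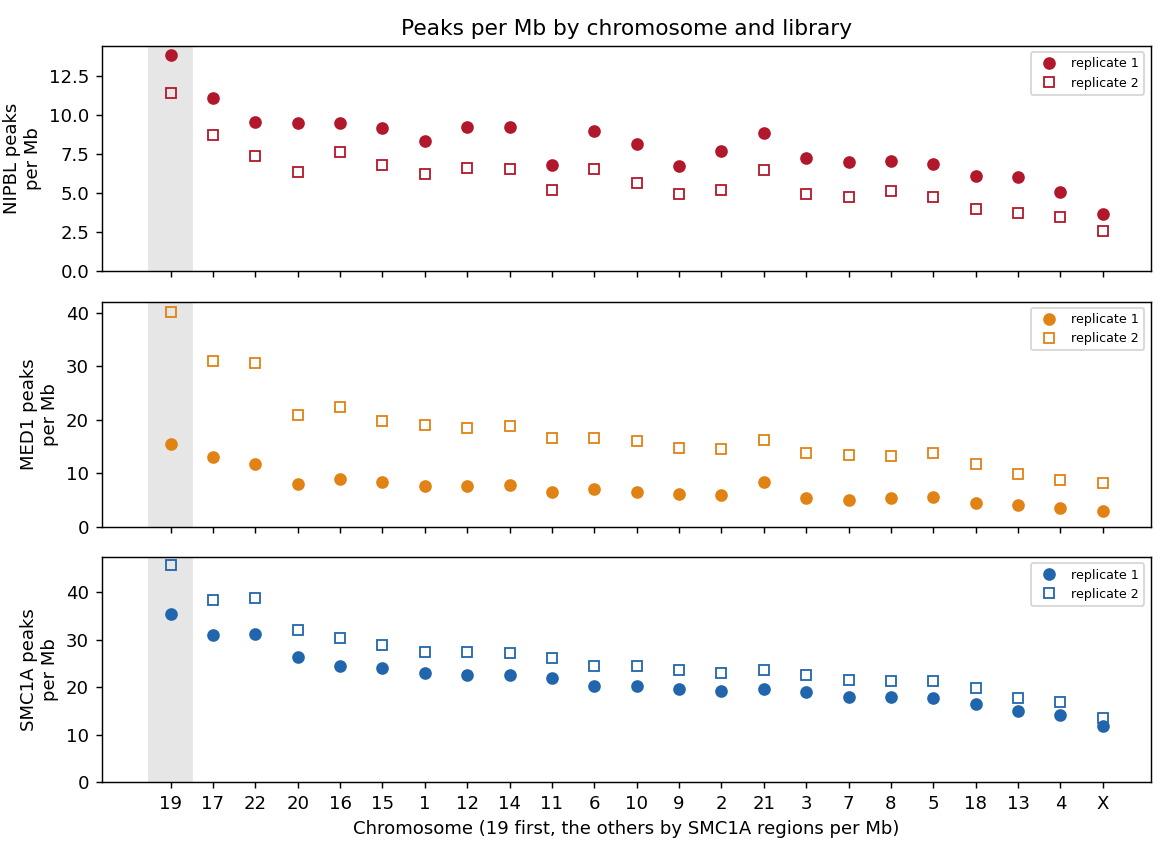
Peaks per Mb (linear axis) on each chromosome, with 1 panel per protein, filled circles for replicate 1 and open squares for replicate 2. Chromosome 19, shaded at the left, is the highest in every library, for example 13.8 and 11.4 peaks per Mb for NIPBL, and chromosome X is the lowest.

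The mean log2 ratio of density on chromosome 19 over the other chromosomes was 1.08 ± 0.23 (SD, n = 6 libraries), and it was positive in 6 of 6. An exact sign-flip permutation test over the libraries, two-sided, gave p = 0.0312, the smallest that 6 libraries can give. Adjusted over the 4 tests of this kind the p was 0.0625, which misses 0.05. Set against chromosomes 16, 17 and 22 alone, which are also short and rich in genes, the mean log2 ratio was 0.45.

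By factor, the log2 ratio averaged 0.99 ± 0.15 for NIPBL, 1.35 ± 0.04 for MED1 and 0.89 ± 0.07 for SMC1A (SD, n = 2 each). Both MED1 libraries, at 1.31 and 1.38, lay above the 4 others, whereas NIPBL at 0.89 and 1.10 overlapped SMC1A at 0.85 and 0.94. MED1 minus SMC1A was 0.45, NIPBL minus MED1 was -0.35 and NIPBL minus SMC1A was 0.10. Exact permutation tests, two-sided, gave p = 0.333, 0.333 and 0.667, adjusted over the 3 pairs to 0.5, 0.5 and 0.667. With 2 libraries a factor no p below 0.333 is possible, so these tests cannot pass. Against chromosomes 16, 17 and 22 the first 2 differences shrank to 0.17 and -0.04.

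Set against genes instead of length, chromosome 19 turned from the richest chromosome to one of the poorest. RefSeq's table for GRCh38.p14, used here for names and their chromosome only, lists 1451 of 19974 protein-coding names on chromosome 19, or 7.26%. Of 517 names that start with ZNF and a digit, 250 are on it. For every 100 such protein-coding names, chromosome 19 held 30.9 NIPBL regions, against 60.4 on the other chromosomes together. MED1 stood at 48.6 regions per 100 names on chromosome 19, against 77.2 elsewhere. SMC1A stood at 122 regions per 100 names on chromosome 19, against 266 elsewhere. Chromosome 19 was the last of 23 chromosomes by this measure for NIPBL and SMC1A, and next to last for MED1. No test was made of these ratios, since a region needs both replicates and names of 1 chromosome are not replicates.

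Along the chromosome, the 3 proteins were dense and sparse over much the same bins. Across the 56 bins that hold a peak, the Spearman correlation of region counts was 0.95 between NIPBL and MED1, 0.93 between NIPBL and SMC1A and 0.93 between MED1 and SMC1A. Across the 2778 bins of the other chromosomes these were 0.87, 0.78 and 0.85. The values are descriptions, since bins of one library share depth and control. The part of mappable sequence and of gene content in the counts was not tested. The 5 fullest bins of each protein held 30.5% of its regions on the chromosome for NIPBL, 25.5% for MED1 and 17.4% for SMC1A. These shares fall as the number of regions rises (449, 705 and 1777), and shares at equal numbers were not taken.

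The short arm up to the first cluster was denser than the long arm between the clusters in each library. NIPBL had 21.5 and 19.2 peaks per Mb on the short arm, against 11.3 and 8.71 on the long arm. MED1 had 24.2 and 59.5 on the short arm, against 13.5 and 34.8 on the long arm. SMC1A had 49.5 and 64.5 on the short arm, against 33.6 and 43.1 on the long arm. The long arm was therefore closer to the other chromosomes, though still above them in each list.

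The fullest NIPBL bin lay from 2 to 3 Mb and held 37 regions, from 58 peaks in replicate 1 and 47 in replicate 2. The bins from 6 to 7 Mb and 7 to 8 Mb followed with 31 and 25. MED1 peaked in the same bin from 2 to 3 Mb, with 45 regions, and had 43 from 1 to 2 Mb. SMC1A peaked from 1 to 2 Mb with 67 regions and from 42 to 43 Mb with 66. At the second of these SMC1A maxima NIPBL had 17 regions and MED1 had 19. No bin on any chromosome held more than the 67 SMC1A regions found from 1 to 2 Mb, while 3 bins elsewhere held more NIPBL and 2 held more MED1 than the fullest bin of chromosome 19. Of all 2834 bins, the 5.22% fullest in SMC1A held at least 42 regions, and 20 of the 56 bins of chromosome 19 reached that count (35.7%). For NIPBL 12 bins reached the 15 regions of the 5.61% fullest bins anywhere, and for MED1 13 bins reached the 19 regions of the 5.36% fullest.

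**Figure D2:**
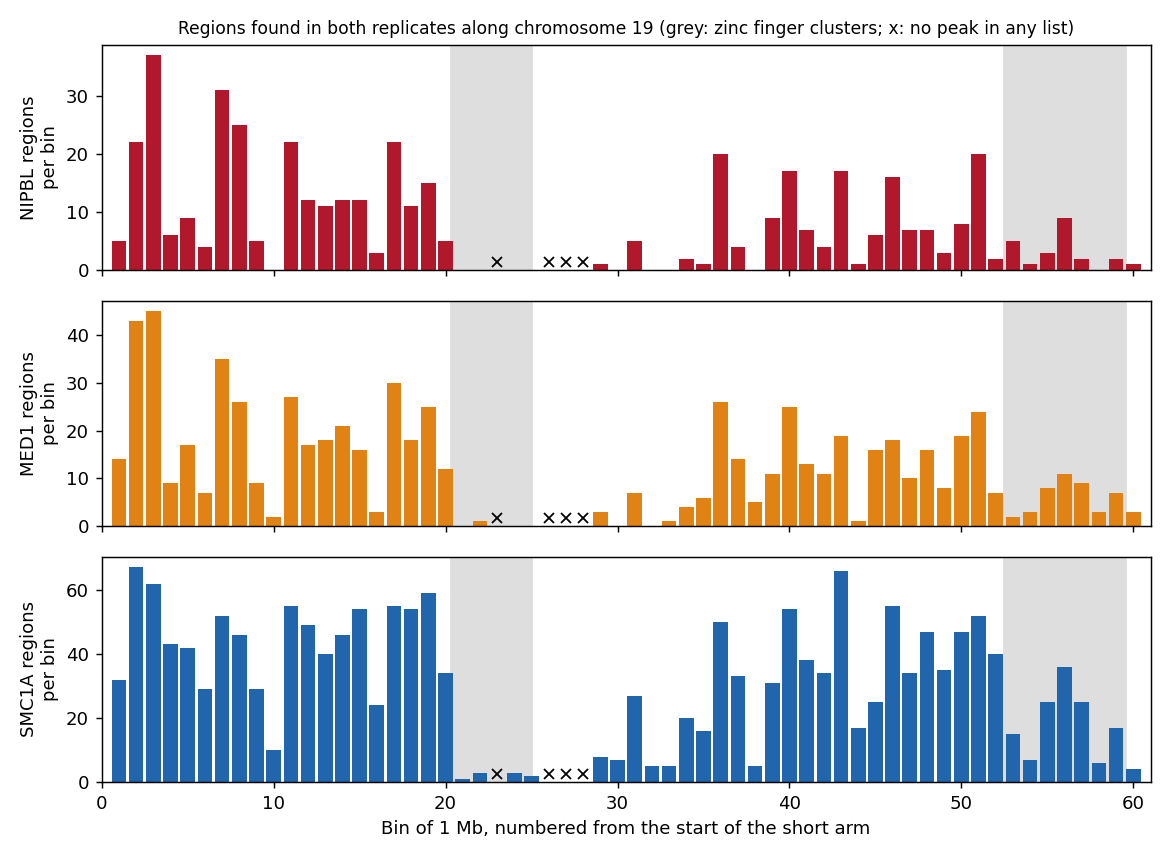
Regions found in both replicates in each 1 Mb bin of chromosome 19, numbered from the start of the short arm, with 1 panel per protein. Grey bands mark the zinc finger clusters and crosses the 4 bins with no peak in any list. The bar heights reach 37 NIPBL, 45 MED1 and 67 SMC1A regions on the short arm, and they are low in the bins wholly inside the first grey band. In the second band they reach 9 NIPBL, 11 MED1 and 36 SMC1A regions from 55 to 56 Mb. The medians over the 56 bins that hold a peak are 5, 10.5 and 33.5.

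All 3 proteins were sparser in the zinc finger clusters than in the rest of chromosome 19. NIPBL had 6.12 and 3.52 peaks per Mb in the clusters, against 15.7 and 13.3 in the rest of chromosome 19. MED1 had 4.91 and 18.7 peaks per Mb in the clusters, against 18.1 and 45.5 in the rest. SMC1A had 15.7 and 18.9 peaks per Mb in the clusters, against 40.3 and 52.2 in the rest. In each library the density in the clusters was 26.5% to 41.2% of that in the rest. Against the other chromosomes the density of both clusters together was 66.1% to 81.9% in 5 libraries and 121% in MED1 replicate 2. Without the clusters, the rest of the chromosome was 2.04 to 2.94 times as dense as the other chromosomes.

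The mean log2 ratio of the clusters over the rest was -1.55 ± 0.28 (SD, n = 6 libraries), negative in 6 of 6. The exact sign-flip permutation test, two-sided, gave p = 0.0312, adjusted to 0.0625 over the 4 tests. By factor it averaged -1.64 ± 0.39 for NIPBL, -1.58 ± 0.43 for MED1 and -1.41 ± 0.07 for SMC1A (SD, n = 2 each), and these ranges overlap. How much of a repetitive array could be mapped was not tested.

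**Figure D3:**
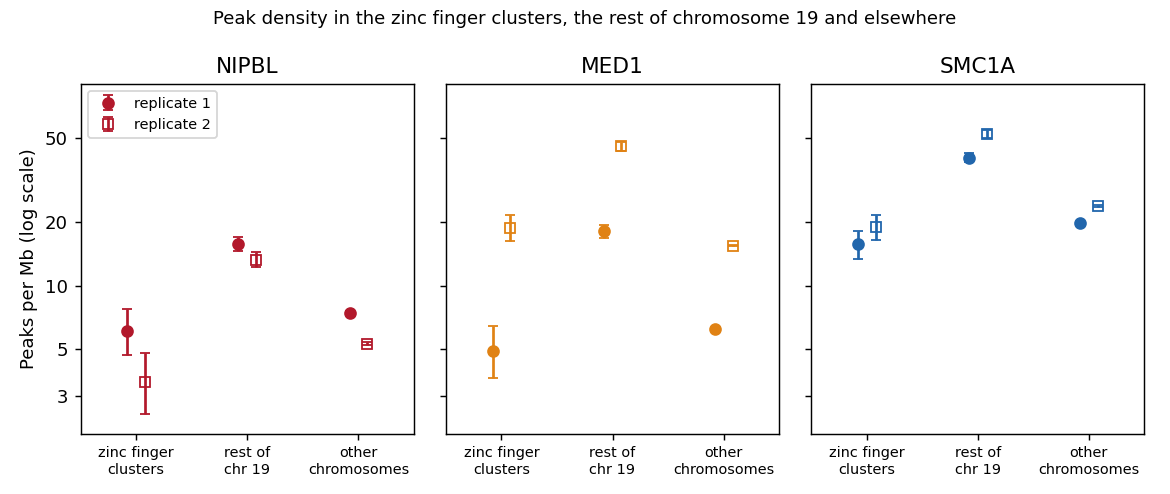
Peaks per Mb (log axis) in the zinc finger clusters, the rest of chromosome 19 and the other chromosomes, by protein and library. Bars are exact Poisson 95% intervals of the counts. In each library the clusters, for example 6.12 per Mb for NIPBL replicate 1, lie below the rest of chromosome 19, at 15.7.

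Density was lowest in the first cluster. NIPBL had 9 and 2 peaks there, MED1 had 4 and 17, and SMC1A had 15 and 16. This is 0.541 to 4.59 peaks per Mb over the 3.7 Mb of its bins that hold a peak, and 0.426 to 3.62 over its full 4.7 Mb. The bin from 22 to 23 Mb inside it held no peak of any list, which made up most of a stretch of 1.12 Mb without peaks. The second cluster was nearer to the rest, with 8.04 and 5.08 NIPBL, 6.91 and 26.1 MED1, and 21.7 and 26.5 SMC1A peaks per Mb. Taken alone, the mean log2 ratio to the rest was -3.60 for the first cluster and -1.07 for the second, a split made after the values were seen. Median control estimates in the first cluster were 2.29 and 2.77 for NIPBL peaks, against 6.63 and 5.64 in the rest. The first 2 values rest on 9 and 2 peaks, and 2.29 is the lowest estimate in the list of replicate 1. Estimates exist only at called peaks, so they do not measure the control signal of the whole cluster. The part of control signal in the peak counts was not tested.

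Of the regions found in both replicates, the first cluster held 1 NIPBL, 1 MED1 and 9 SMC1A regions, and the second held 23, 46 and 135. By regions there were 6 SMC1A for each NIPBL in the clusters, against 3.84 in the rest of the chromosome and 4.40 on the other chromosomes. That ratio rests on 24 NIPBL regions, and the replicates differ on it. Peaks of replicate 1 do not show it, with 169 SMC1A and 66 NIPBL peaks in the clusters, against 1786 and 696 in the rest. Peaks of replicate 2 do, with 204 SMC1A and 38 NIPBL peaks in the clusters, against 2311 and 589 in the rest. MED1 regions per NIPBL region were 1.96 in the clusters, against 1.55 in the rest. The share of peaks found again in the other replicate differed between clusters and rest in some libraries. In the clusters 36.4% of NIPBL replicate 1 peaks were found in replicate 2 (95% interval 24.9 to 49.1), against 62.4% in the rest (58.6 to 66.0). For SMC1A replicate 1 these shares were 86.4% in the clusters (80.3 to 91.2), against 93.5% in the rest (92.3 to 94.6), and for MED1 replicate 2 they were 23.8% (18.1 to 30.2), against 32.9% (30.8 to 35.0). The intervals overlapped for NIPBL replicate 2, at 63.2% in the clusters against 74.5%, and for MED1 replicate 1, at 94.3% against 99.0%. SMC1A replicate 2 had 71.6% in the clusters, against 72.0% in the rest. Intervals here and below are exact Clopper-Pearson intervals and cover counting error only.

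Peaks on chromosome 19 were about as strong as peaks elsewhere. Each peak was placed by the percentile of its fold enrichment within its own list, where 50 is the middle. The median on chromosome 19 was 51.5 and 49.6 for NIPBL, 49.7 and 52.3 for MED1, and 51.1 and 47.7 for SMC1A. Each factor thus had a library on either side of the middle. The mean departure from 50 was 0.306 ± 1.67 percentile points (SD, n = 6; exact sign-flip permutation p = 0.719, two-sided, adjusted 0.781). The high density was spread over weak and strong peaks. In the weakest 20% of each list it was 1.69 and 1.95 times that elsewhere for NIPBL, 2.37 and 2.30 times for MED1 and 1.89 and 2.09 times for SMC1A. In the strongest 20% it was 1.78 and 2.13 times for NIPBL, 2.52 and 2.63 times for MED1 and 2.12 and 2.16 times for SMC1A. SMC1A alone dipped between these ends, to 1.57 in replicate 1 and 1.65 in replicate 2. In the strongest 5% the ratio was 1.60 and 2.19 for NIPBL, 1.90 and 2.43 for MED1 and 2.34 and 2.55 for SMC1A. This was above every step of 20% in both SMC1A lists and below every such step in replicate 1 of NIPBL and of MED1. Replicate 2 of NIPBL and of MED1 stayed within the range of its steps.

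**Figure D4:**
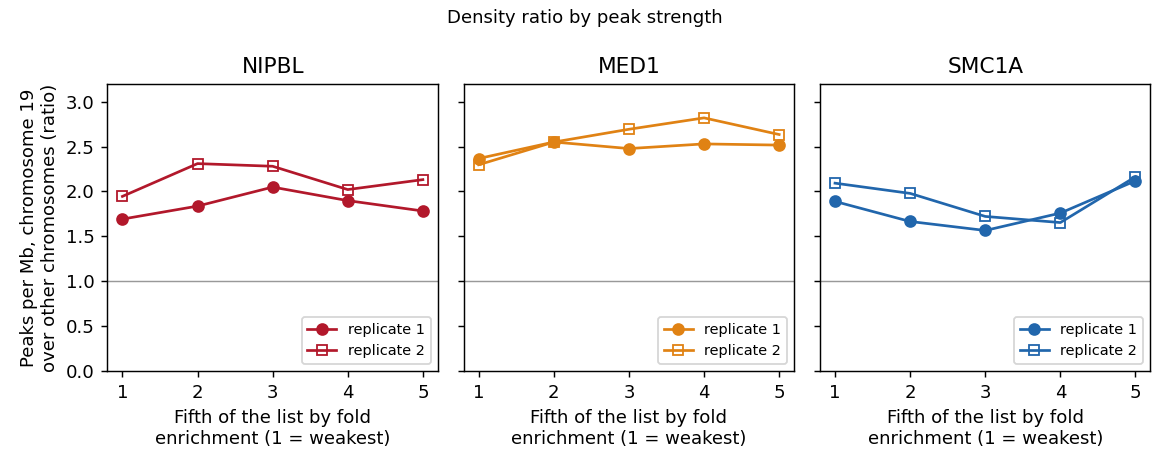
Ratio of peaks per Mb on chromosome 19 to the other chromosomes (linear axis) in 5 equal steps of a list, ordered by fold enrichment with the weakest first. Lines join the steps of 1 library, with filled circles for replicate 1 and open squares for replicate 2. All points lie above the grey line of equal density, from 1.57 for SMC1A to 2.82 for MED1.

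Inside the clusters the factors parted in strength. NIPBL peaks in the clusters had median percentiles of 53.1 and 52.8, against 50.5 and 49.1 in the rest of the chromosome. SMC1A peaks in the clusters had 53.6 and 48.9, against 51.1 and 47.7 in the rest. MED1 peaks in the clusters had 40.9 and 47.9, against 51.1 and 52.8 in the rest. MED1 was thus lower in the clusters in both libraries and the other proteins slightly higher. Over all 6 libraries the mean difference was -0.835 ± 5.52 percentile points (SD, n = 6; exact sign-flip permutation p = 0.781, two-sided, adjusted 0.781). Ranked by −log10 p in place of fold enrichment, NIPBL peaks in the clusters lay lower as well, at medians of 31.2 and 34.9, against 51.8 and 50.6 in the rest.

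The share of NIPBL regions that met MED1 on chromosome 19 was close to that elsewhere, while the share of MED1 regions that met NIPBL was lower. Of the 449 NIPBL regions, 329 overlapped MED1 (73.3%, 68.9 to 77.3), against 70.1% on the other chromosomes (69.2 to 70.9) and 70.2% over all chromosomes. Of the 705 MED1 regions, 294 overlapped NIPBL (41.7%, 38.0 to 45.4), against 49.7% on the other chromosomes (48.9 to 50.5) and 49.3% over all. The intervals of the first pair overlap and those of the second do not. Against chromosomes 16, 17 and 22, where 43.1% of MED1 regions overlapped NIPBL, the difference of -7.98 points shrank to -1.42. The shares depend on the shorter MED1 list, and without MED1 replicate 1 they were 17.9% on chromosome 19, against 23.2% elsewhere. MED1 regions numbered 1.57 for each NIPBL region on chromosome 19 and 1.28 elsewhere. A share has no replicates, since a region needs both libraries, so no test was made.

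The share of SMC1A regions that met MED1 was higher on chromosome 19 than elsewhere. Of the 1777 SMC1A regions, 382 overlapped MED1 (21.5%, 19.6 to 23.5), against 17.3% on the other chromosomes (16.99 to 17.66) and 17.5% over all. With NIPBL it was 260 (14.6%, 13.02 to 16.36), against 14.3% elsewhere (14.0 to 14.6) and 14.3% over all. From the other side, 261 of the NIPBL regions overlapped SMC1A (58.1%, 53.4 to 62.7), against 62.6% elsewhere (61.7 to 63.5) and 62.4% over all. Among MED1 regions 344 overlapped SMC1A (48.8%, 45.0 to 52.6), against 52.4% elsewhere (51.6 to 53.2) and 52.2% over all. Only the intervals of SMC1A with MED1 lie apart among these 4 pairs. That difference of 4.17 points shrank to 1.25 against chromosomes 16, 17 and 22 and widened to 13.2 without MED1 replicate 1, where the shares were 42.9% on chromosome 19, against 29.7% elsewhere.

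**Figure D5:**
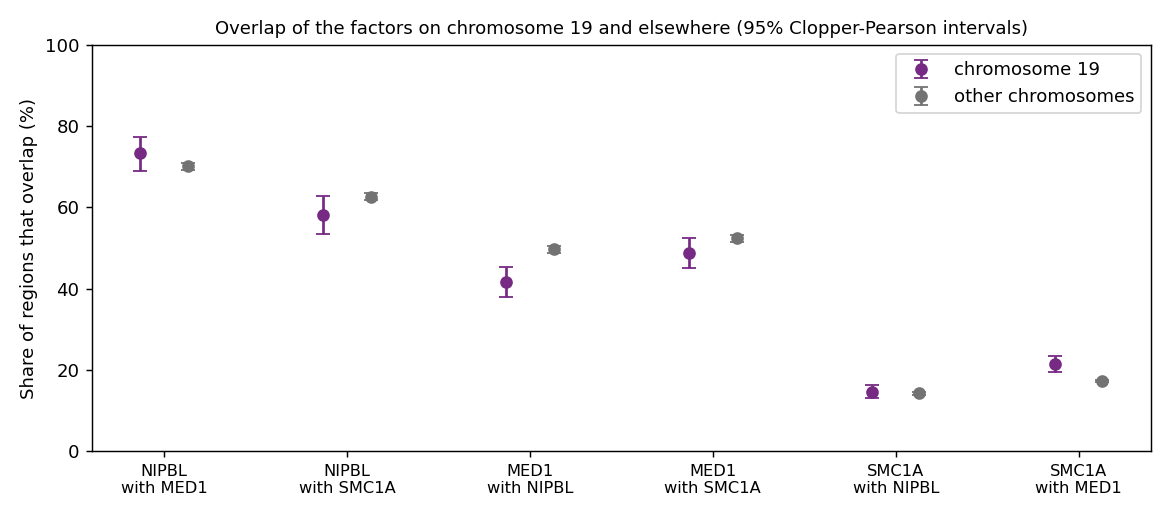
Share of regions (%) of the first protein that overlap a region of the second by at least 1 bp, on chromosome 19 and, to its right, on the other chromosomes. Bars are exact 95% Clopper-Pearson intervals. The intervals are apart for MED1 with NIPBL, at 41.7% against 49.7%, and for SMC1A with MED1, at 21.5% against 17.3%.

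Sorted by both partners, 211 NIPBL regions of the chromosome held MED1 and SMC1A (47.0%, against 47.9% elsewhere). MED1 alone accompanied 118 (26.3%, 22.3 to 30.6, against 22.2% elsewhere), SMC1A alone 50 (11.1%, 8.38 to 14.4, against 14.8%) and neither 70 (15.6%, against 15.1%). Of those 70 regions, 57 overlapped a MED1 or SMC1A peak called in 1 library, against 1514 of 1693 elsewhere, which left 13 on chromosome 19 and 179 elsewhere apart from every peak of the other proteins. Of the SMC1A regions 1346 held neither partner (75.7%, 73.7 to 77.7), against 79.4% elsewhere (79.0 to 79.7). In the zinc finger clusters 120 of 144 SMC1A regions held neither (83.3%, 76.2 to 89.0), against 75.1% in the rest of the chromosome (72.9 to 77.2). There, 10 of 24 NIPBL regions overlapped MED1 (41.7%, 22.1 to 63.4), against 75.1% in the rest (70.7 to 79.1), and 15 of the 24 overlapped SMC1A (62.5%), against 57.9%.

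SMC1A was strongest where it met NIPBL without MED1. Those 49 SMC1A regions of chromosome 19 had median fold enrichments of 22.9 and 25.9, against 14.7 and 17.2 for the 1627 such regions elsewhere. The quartiles in replicate 1 were 4.88 and 30.7 on chromosome 19, against 4.15 and 24.6 elsewhere, so these ranges overlap widely. SMC1A regions with neither partner stood at 12.4 and 14.1 on chromosome 19, against 11.5 and 12.9 elsewhere. With both partners SMC1A was weak on chromosome 19, at 4.48 and 5.62, as it was elsewhere, at 4.37 and 5.31. MED1 went the other way, since its regions with both partners had 5.08 and 10.7 on chromosome 19 and those with neither had 3.55 and 6.64.

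The strongest NIPBL region of the chromosome, from 44269133 to 44270113 on the long arm, was 981 bp wide and held both partners. Its fold enrichments were 16.4 and 11.9 for NIPBL, 15.9 and 33.4 for MED1 and 7.07 and 6.88 for SMC1A. The second, from 52109981 to 52110665, lay inside the second zinc finger cluster, with 10.7 and 9.97 for NIPBL, 5.59 and 13.7 for MED1 and 3.75 and 8.69 for SMC1A. The third, from 2085054 to 2085778, had the highest MED1 of the 8 named, at 18.6 and 37.5, with NIPBL at 9.73 and 11.2. The seventh, from 2610513 to 2611648, stood out in SMC1A, with 25.6 and 29.6, above the other 7. Of the 8 strongest with both partners, 6 lay on the short arm and 3 of those between 7 and 8 Mb. Positions are 1-based on hg19, for which no gene annotation was used, so genes are not assigned.

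With MED1 and no SMC1A region, the strongest NIPBL region lay from 50850314 to 50850972, with NIPBL at 7.75 and 8.67 and MED1 at 5.76 and 8.56, and no SMC1A peak was called there in either library. With SMC1A and no MED1 region, the strongest lay from 7864251 to 7865341, with NIPBL at 6.67 and 8.65 and SMC1A at 21.9 and 25.9. The next, from 16358371 to 16358836, had SMC1A of 49.2 and 55.3. All 3 regions named in this class carried a MED1 peak of replicate 2, at 4.57 to 6.58, so none was free of MED1 signal. With neither partner, the strongest lay from 45909624 to 45909979, with NIPBL at 10.4 and 8.13 and a MED1 peak of 5.94 in replicate 2. The second, from 30335158 to 30335657, had NIPBL at 6.0 and 6.13 and no peak of another protein in any library.

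The strongest SMC1A region with neither partner lay from 3665471 to 3666460, with SMC1A at 54.1 and 70.0. The next, from 10138122 to 10138982, had 56.2 and 55.1, and of the 5 named only the fourth, from 1371915 to 1372381 with 51.3 and 49.9, carried no NIPBL or MED1 peak of any library. The strongest MED1 region without NIPBL lay from 45582126 to 45583596, with MED1 at 7.74 and 14.3 and a NIPBL peak of 2.64 in replicate 1. The third, from 2054634 to 2056725, was 2092 bp wide, with MED1 at 6.73 and 17.3 and no NIPBL or SMC1A peak in any library.

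In the first zinc finger cluster the only NIPBL region lay from 19946103 to 19946876, with NIPBL at 6.38 and 5.09 and an SMC1A peak of 5.02 in replicate 1. The only MED1 region there, from 21949929 to 21950403, had 4.42 and 4.88. The strongest SMC1A region there, from 20069957 to 20070363, had 17.01 and 23.52 with no peak of another protein. Fold enrichments of different proteins are not on 1 scale. By mean percentile within its own lists this SMC1A region stood at 82.5, against 84.9 for the NIPBL region and 59.9 for the MED1 region. In the second cluster the strongest SMC1A region, from 55187466 to 55188174, had 44.0 and 47.8 and no peak of another protein. After the NIPBL region already given, the next of that cluster lay from 54857522 to 54858138, with NIPBL at 8.26 and 6.44, MED1 at 6.071 and 13.001 and SMC1A at 3.05 and 3.39. The strongest MED1 region of the cluster, from 56152135 to 56152823, had 6.88 and 11.5.

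Regions lay closer together on chromosome 19. The median gap between neighbouring regions was 19.2 kb for NIPBL, against 30.5 kb on the other chromosomes. For MED1 it was 15.9 kb on chromosome 19, against 26.9 kb elsewhere, and for SMC1A 13.5 kb, against 24.6 kb. With NIPBL regions at most 10 kb apart stitched together, 259 of 449 lay in clusters of at least 2 (57.7%, 53.0 to 62.3), against 51.4% elsewhere (50.5 to 52.3). Against chromosomes 16, 17 and 22 the difference of 6.29 points shrank to 2.44. Gaps shorten and stitched shares rise as density rises, and NIPBL had 8.15 regions per Mb on chromosome 19, against 4.04 elsewhere. Neither measure was compared at equal density. The largest of these stitched clusters held 9 NIPBL, 5 MED1 and 6 SMC1A regions within 16634 bp, from 2079876 to 2096509. The next, from 7755685 to 7775444, held 8 NIPBL, 5 MED1 and 4 SMC1A regions, and another from 50844248 to 50880002 held 8, 7 and 6. None reached the largest elsewhere, of 19 NIPBL regions, and these 3 lay outside the zinc finger clusters.

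MED1 regions wider than 2000 bp numbered 61 on chromosome 19 (8.65%), against 8.22% of MED1 regions elsewhere, and 1 of the 61 lay in a zinc finger cluster. The widest, from 16694769 to 16701112, spanned 6344 bp and held 4 NIPBL and 4 SMC1A regions, with MED1 at 10.6 and 25.4. The second, from 2474530 to 2479990, held 3 NIPBL and 2 SMC1A regions, with SMC1A as high as 21.6 and 25.9. The third, from 2092031 to 2097405, overlapped the end of the largest stitched NIPBL cluster and held 3 NIPBL and 3 SMC1A regions. The widest MED1 region elsewhere measured 20758 bp.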

How the data were processed

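Peaks were called by the authors on each ChIP library against the pooled whole cell extracts, per the labels. Trimmomatic 0.33, BWA 0.7.12 and MACS2 2.1.0 are listed with hg19 in the submitters' processing notes, without settings. Each deposited peak has a fold enrichment, which is a ratio of signal to control at the summit. It also has a deposited −log10 p-value, a −log10 q-value (lowest 1.30), a summit offset in bp and a score, which was not used. Pileup and control estimate were solved from fold and p, which gave a solution for 99.7% or more of every list. The lowest control estimate at a called peak was taken as relative depth, which was not checked.

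Peaks were placed by summit and regions by midpoint, and an overlap of 1 bp counted. Python 3.11.15, NumPy 2.4.6, pandas 2.3.3 and SciPy 1.17.1 were used, and steps were tested on simulated data. Named regions are the 8 strongest NIPBL regions with both partners, 3 in each other NIPBL class, 5 each of SMC1A with neither and MED1 without NIPBL, and 3 per factor and zinc finger cluster, ranked by their mean fold enrichment percentile. The text gives part of them. The members, lists and rules were chosen with earlier results of these data known. No sequence of hg19 was used here.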

Additional observations from a re-analysis of the deposited data

Results flagged for a closer look

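The change in peak strength inside the zinc finger clusters differed in direction between factors. NIPBL peaks in the clusters lay 2.58 and 3.70 percentile points above those in the rest of chromosome 19 in replicates 1 and 2, while MED1 peaks lay at -10.2 and -4.89 points. NIPBL minus MED1 was 10.69 points on average. SMC1A peaks lay 2.56 and 1.25 points above, so MED1 minus SMC1A was -9.449 points. The differences were not tested. They rest on few peaks, since the clusters held 66 and 38 NIPBL, 53 and 202 MED1 and 169 and 204 SMC1A peaks. The opposite directions depend on the measure of strength: ranked by −log10 p, NIPBL peaks in the clusters lay at -20.5 and -15.7 points, MED1 at -13.4 and -6.16 and SMC1A at -2.94 and 0.505.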

How the results depend on the processing

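Both density ratios kept their sign in each library under every setting that kept all 6, where the exact permutation p = 0.0312 is the smallest possible and so says nothing of stability. The chromosome 19 ratio was 0.45 against chromosomes 16, 17 and 22. Without 1 library the chromosome 19 density ratio was 1.02 to 1.12 and the zinc finger ratio -1.60 to -1.47 on the log2 scale, with p = 0.0625, the smallest that an exact test of 5 libraries can give. NIPBL minus SMC1A turned to -0.037 with the top 15000 peaks of every list, and without 1 library it ran from -0.0059 (without NIPBL replicate 2) to 0.20. Without 1 library MED1 minus SMC1A was 0.40 to 0.50 and NIPBL minus MED1 -0.46 to -0.25. Peak strength on chromosome 19 was -0.0892 (without MED1 replicate 2) to 0.837 points without 1 library, and reached 1.05 with −log10 q of at least 5. The strength difference of the zinc finger clusters turned to 0.779 with −log10 q of at least 5, and without 1 library it was -1.74 to 1.04 (without MED1 replicate 1). It was -9.72 ranked by −log10 p and -6.66 with the top 15000 peaks, negative in 5 of 6 libraries each (exact permutation p = 0.0625 for both).

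Shares on chromosome 19 minus other chromosomes moved with the setting. Against chromosomes 16, 17 and 22 they were -2.24 points for NIPBL with MED1, 1.25 for SMC1A with MED1, -1.10 for SMC1A with neither, -1.42 for MED1 with NIPBL and 0.493 for MED1 with SMC1A. With the top 15000 peaks NIPBL with SMC1A was 1.19 and MED1 with SMC1A 3.13. With regions of either replicate SMC1A with MED1 was 12.7 and SMC1A with neither -11.7. Without 1 library the ranges were 0.378 to 7.89 for NIPBL with MED1 (7.89 without NIPBL replicate 2), -5.75 to 0.990 for NIPBL with SMC1A (0.990 without SMC1A replicate 1), 3.75 to 13.2 for SMC1A with MED1 and -12.7 to -2.77 for SMC1A with neither (13.2 and -12.7 without MED1 replicate 1). They were -8.40 to -5.31 for MED1 with NIPBL, -4.49 to 0.739 for MED1 with SMC1A (0.739 without MED1 replicate 1), -0.145 to 1.03 for SMC1A with NIPBL and 4.62 to 5.80 for NIPBL clusters. The causes were not tested.

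With the replicate number as a block, MED1 minus SMC1A stayed at 0.45, NIPBL minus MED1 at -0.35 and NIPBL minus SMC1A at 0.10 (exact permutation p = 0.5 in each, the smallest for 2 pairs). Deviations of same-numbered libraries over 2834 bins correlated at -0.06 for NIPBL and SMC1A, 0.16 for MED1 and SMC1A and -0.20 for NIPBL and MED1. The signs are mixed, so these values do not show whether the numbers pair the libraries. Crossed numbers, tried for NIPBL and MED1 after seeing the data, made 0 calls, as did the block. The split by single cluster and those for MED1 with NIPBL, MED1 with SMC1A and SMC1A with NIPBL were also added after seeing the data.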

Other observations

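Several bins outside the first and second zinc finger clusters held no NIPBL region. Whether such bins hold smaller zinc finger arrays was not examined, since no gene annotation of hg19 was used. The bin from 9 to 10 Mb held 0 NIPBL, 2 MED1 and 10 SMC1A regions, between bins with 5 and 22 NIPBL regions. The bin from 37 to 38 Mb held 0 NIPBL, 5 MED1 and 5 SMC1A regions, although NIPBL replicate 1 had 7 peaks there and replicate 2 had 1. As many MED1 as SMC1A regions in a bin contrasts with the chromosome as a whole, which held 2.52 SMC1A regions for each MED1 region. The bins from 29 to 30 Mb and 31 to 32 Mb held 0 NIPBL and 0 MED1 regions and 7 and 5 SMC1A regions. In these bins NIPBL had no peak in either library. The bin from 4 to 5 Mb held 9 NIPBL regions, of which 7 overlapped MED1 and 0 overlapped SMC1A, although 42 SMC1A regions lay in that bin. These bins were picked after their values were seen, and no test was made. The longest stretch without a peak of any list ran for 3.92 Mb from 24342867 to 28265827 and includes the centromere.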
